A study of Saccharomyces cerevisiae with 4 samples.

Results

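The values of 2 yeast mutants were set against each other gene by gene: mtr3-1, with a lesion in the ring of the RNA exosome, and mtr4-1, with a lesion in a helicase that serves the nuclear exosome. Wild type was not used. Every gene that the authors' tables on tubulin, spindle and mitosis list with values was taken once, which gave 133 of the 144 genes named there. For each, the mtr3-1 value was divided by the mtr4-1 value.

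The mtr3-1 library came from *Saccharomyces cerevisiae* strain T208 and the mtr4-1 library from strain T188. Both cultures grew in the rich medium YPD at 30 °C to an OD600 of 0.4 and then spent 2 h at 37 °C, and poly(A)-selected RNA was sequenced. There was 1 library per mutant and no replicate, so no difference can be weighed against replicate error and no test is given. The mutants are separate strains, so the effect of a lesion and that of strain background cannot be told apart. The values are not counts, so the depth of each library is unknown. The transcripts of MTR3 and MTR4 themselves, and of the other exosome and TRAMP subunits, are not analysed here.

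The exosome is the main 3′ to 5′ RNA-degrading machine of both nucleus and cytoplasm. Mtr3 is a subunit of its barrel-shaped ring, through which RNA is threaded to the catalytic subunit. Mtr4 unwinds RNA in the nucleus, alone or within the TRAMP complex, and hands it to the exosome. Many of its known substrates are noncoding RNAs and aberrant transcripts. Most genes described here, in contrast, are annotated as protein-coding, and all come from the authors' tables on tubulin, spindle and mitosis.

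Values, which the authors called normalized and which are named normalized units below, ran from 1.69 to 1443 in mtr3-1 and from 2.98 to 1554 in mtr4-1. The median gene stood at 28.6 units in mtr3-1 and 23.4 in mtr4-1. The median ratio was 1.17, a log2 difference of 0.22, and 96 genes had the higher value in mtr3-1 against 37 in mtr4-1. The sources used here do not give the normalization, so a difference in scaling cannot be told apart from a difference across most of these genes. Each ratio is therefore given as deposited and, where it matters, divided by the median ratio.

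A gene was counted as higher or lower when its ratio was at least 1.5-fold from equality. As deposited, 24 of 133 genes (18%) were higher in mtr3-1 and 8 (6.02%) were lower. After division by the median, 12 (9.02%) were higher and 16 (12%) lower, so which side held more genes depended on the scaling. Most genes stayed inside the limits on either scale, 101 as deposited and 105 after division. YBP2, with a ratio of 1.504, was the last gene counted as higher, and NET1, with 1.49, the first not counted. At the lower limit YKE2 was counted with 0.665 and BFA1 was not with 0.681.

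**Figure D1:**
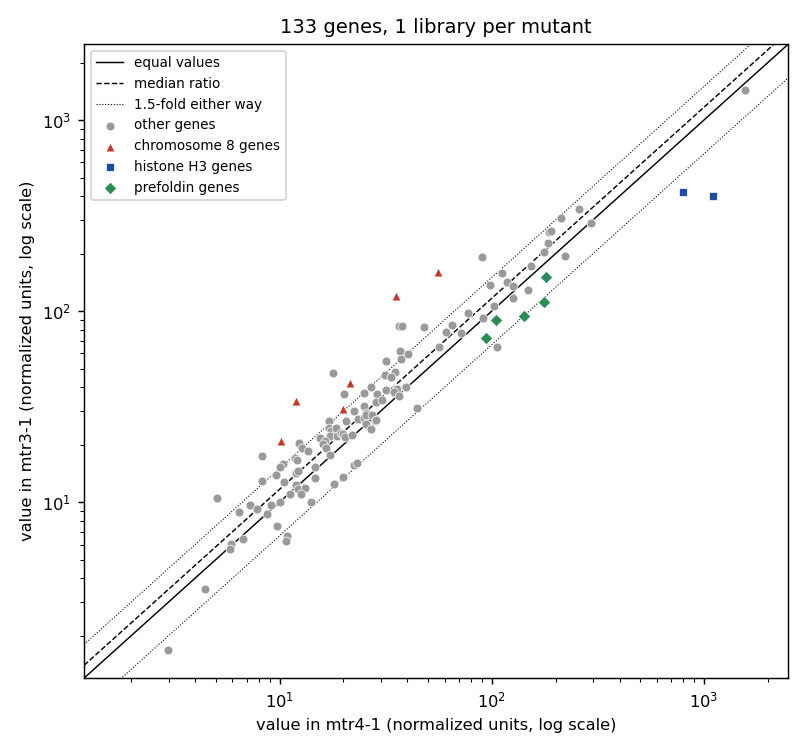
Value of each of 133 genes in mtr3-1 (vertical axis) against mtr4-1 (horizontal axis), both in normalized units on log scales, 1 point per gene. The solid line marks equal values, the dashed line the median ratio of 1.17 and the dotted lines 1.5-fold either way. The 6 genes of chromosome 8 lie above the upper dotted line, and both histone H3 genes and the 5 prefoldin genes lie below the solid line.

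The highest ratio belonged to UBA4, which encodes the enzyme that activates the ubiquitin-like protein Urm1. It stood at 119.8 units in mtr3-1 and 35.2 in mtr4-1, for a ratio of 3.40 (2.91 after division; chromosome 8, 333 to 334 kb, sacCer2). DMA1, a ubiquitin ligase that acts in septin and spindle position control, was at 161 and 55.7 units, a ratio of 2.89 (chromosome 8, 340 to 341 kb). CDC23, a subunit of the anaphase-promoting complex, was at 33.7 and 12.02 units, a ratio of 2.80 (chromosome 8, 437 to 439 kb). These 3 genes and TGL4, a lipase of fat stores, at 47.4 and 17.8 units and a ratio of 2.66, stayed above 2-fold after division.

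Next in order came genes with ratios near 2. BUD14, which restrains a formin, was at 83.3 units in mtr3-1 and 36.4 in mtr4-1, for a ratio of 2.29. CHS1, a chitin synthase that repairs the wall at cell separation, was at 191 and 89.7 units, a ratio of 2.13. GIC2, which ranked between these 2 genes, and BNI1, KEL1, GIC1 and CLA4, which ranked after them, are described with their groups below. YDR118W-A, listed under the name APC4, also had a ratio of 2.07 on low values of 10.5 and 5.08 units, and its identity is uncertain. These 12 genes were the ones that remained at least 1.5-fold higher after division.

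The lowest ratios belonged to the histone H3 genes, described below. SHE1, whose product sits on microtubules and limits dynein activity, was at 6.23 units in mtr3-1 and 10.7 in mtr4-1, for a ratio of 0.581. DDC1, part of the DNA damage checkpoint clamp, was at 6.68 and 10.9 units, a ratio of 0.615. Both are among the weaker signals of the tables. YFR036W-A, of uncertain identity, had the lowest values of all, 1.69 and 2.98 units.

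**Figure D2:**
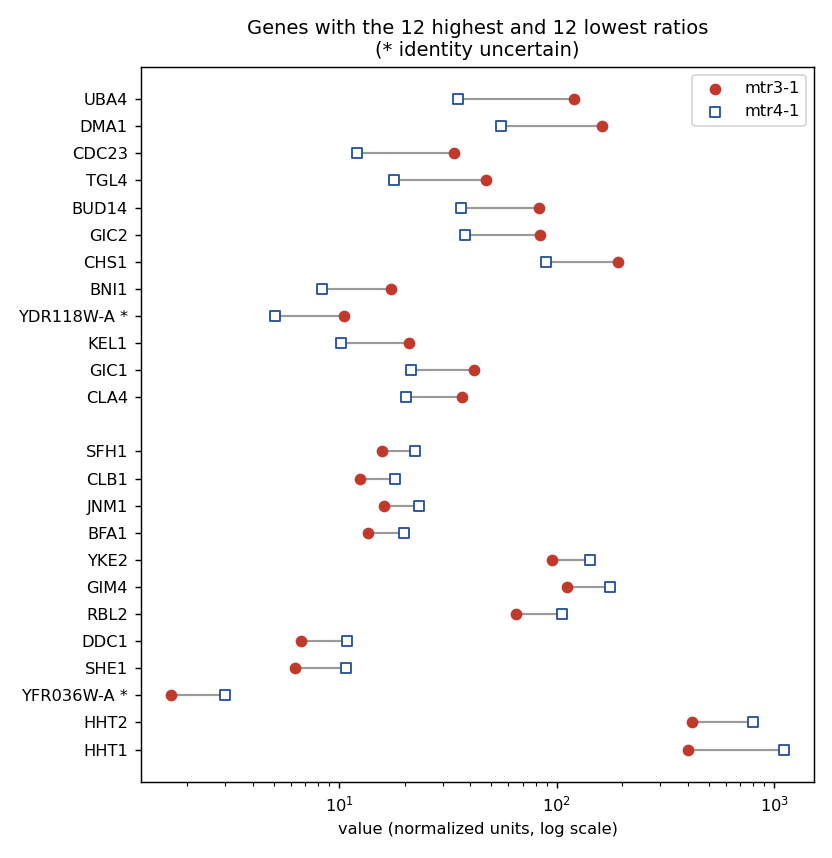
Values in mtr3-1 (filled circles) and mtr4-1 (open squares) of the genes with the 12 highest and the 12 lowest ratios, in normalized units on a log scale, ordered from UBA4 with a ratio of 3.40 to HHT1 with 0.363. A star marks an uncertain identity. High ratios occur at values from 5.08 to 191 units, and the 2 histone genes at the bottom carry far higher values than the others.

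The genes were also grouped by chromosome, which their choice did not use. This grouping was made after the values were seen. All 6 measured genes of chromosome 8 were at least 1.5-fold higher in mtr3-1, beside 18% of all genes, and 5 of the 6 stayed so after division, beside 9.02%. Their ratios ran from 1.55 to 3.40 with a median of 2.42, and each ranked among the highest 19 of 133. Over the 127 genes of the other 15 chromosomes the median was 1.15, and single chromosome medians lay between 1.01 and 1.49.

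The 6 genes have different roles and sit at different levels. Beside UBA4, DMA1 and CDC23 they are KEL1, a kelch-repeat protein of polarity, GIC1, an effector of the GTPase Cdc42, and ARP1, the actin-related filament of dynactin. KEL1 was at 20.9 units in mtr3-1 and 10.2 in mtr4-1 (ratio 2.04), GIC1 at 41.9 and 21.5 (1.95), and ARP1 at 30.8 and 19.9 (1.55). After division ARP1 alone, at 1.33, was inside the limits. ARP1 is listed under chromosome 3 in the tables, but its identifier, YHR129C, and the annotation place it on chromosome 8. A further 3 genes of the chromosome, STE20, SPO12 and YHR127W, are listed without values, so the 6 are part of 9 named ones. Without the 6 genes, 18 of 127 (14.2%) were higher and 8 (6.30%) lower as deposited.

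**Figure D3:**
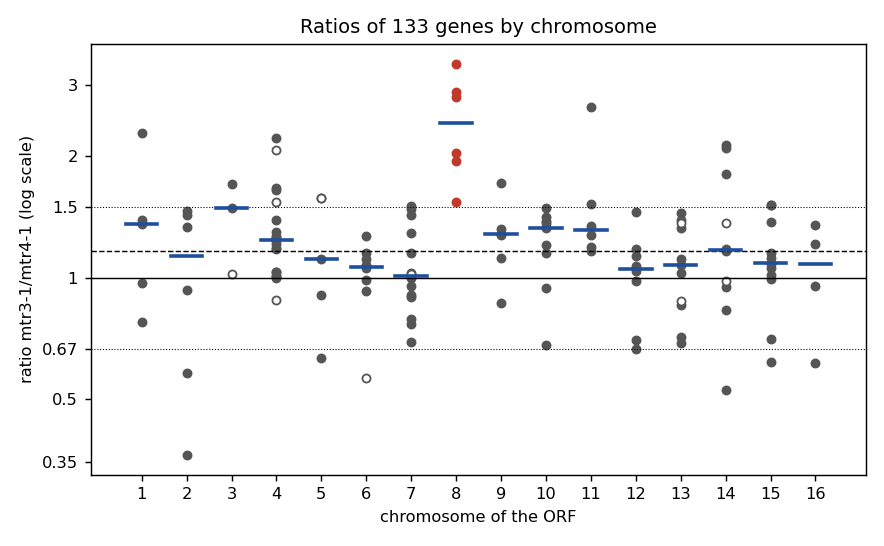
Ratio of mtr3-1 to mtr4-1 as deposited (vertical axis, log scale) for 133 genes by the chromosome of the ORF, with 1 point per gene, open where the identity is uncertain, and a bar at each chromosome's median. The solid line marks 1, the dashed line the median of 1.17 and the dotted lines 1.5-fold either way. Chromosome 8 has all 6 points above 1.5, and no other chromosome has all its points there.

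Both histone H3 genes were lower in mtr3-1. HHT1, one of 2 genes for the nucleosome core histone H3, stood at 402 units in mtr3-1 and 1108 in mtr4-1, for a ratio of 0.363, or 2.75-fold lower (chromosome 2, 256 kb). HHT2, its partner on chromosome 14, was at 421 and 800.4 units, a ratio of 0.526, or 1.90-fold lower (575 to 576 kb). Within mtr3-1 the 2 genes were nearly level, whereas in mtr4-1 HHT1 was the higher one. Histone transcripts accumulate in S phase. In RNA of whole cultures, fewer cells in a phase and less RNA per cell cannot be told apart.

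Reads of at most 36 bases cannot always separate these 2 genes, and the sources used here do not say how reads with several matches were treated. The coding sequences, both of 411 bases, differ at 28 positions and are 93.2% identical. Of the 376 windows of 36 bases in HHT1, 78 (20.7%) occur unchanged in HHT2, so the split of reads between the genes is uncertain. The labels also give a barcode of 3 bases. If the 36 cycles include it, less of each read is gene sequence, and 20.7% is too low. The first 120 bases of each coding sequence show shared and differing parts, with capitals at the 8 positions that differ. They were taken from the RefSeq assembly R64 by ORF identifier and are given 5′ to 3′ on the coding strand.
HHT1: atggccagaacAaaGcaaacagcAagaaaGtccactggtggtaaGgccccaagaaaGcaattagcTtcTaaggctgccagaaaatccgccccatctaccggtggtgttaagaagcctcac
HHT2: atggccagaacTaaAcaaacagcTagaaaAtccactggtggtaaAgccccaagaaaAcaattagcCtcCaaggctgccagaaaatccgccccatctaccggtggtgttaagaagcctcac
The first part of the stretch can tell the genes apart, and the second part, identical in both, cannot.

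Prefoldin, which captures newly made tubulin and actin chains and passes them to the chaperonin, had lower values in mtr3-1 for all 5 measured subunits. GIM4 stood at 111 units in mtr3-1 and 176 in mtr4-1, for a ratio of 0.632, and YKE2 at 94.7 and 142 units, a ratio of 0.665. PAC10 was at 71.9 and 93.7 units (0.768), GIM3 at 150.3 and 181 (0.830), and GIM5 at 89.7 and 105 (0.858). Of the 5, 2 were at least 1.5-fold lower as deposited, beside 6.02% of all genes. After division there were 3, beside 12%, with PAC10 at 0.658. The list's median was 0.768 (0.658 after division), beside 1.17 over all genes.

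RBL2, a cofactor that binds β-tubulin, shared this direction with 65.1 units in mtr3-1 and 105 in mtr4-1, for a ratio of 0.618. The other tubulin cofactors lay inside the limits: PAC2, which handles α-tubulin, at a ratio of 0.909, and CIN1, which handles β-tubulin, at 1.12. The tubulins were also inside. TUB2, the sole β-tubulin gene, stood at 289 and 292 units (0.990), TUB1, the main α-tubulin gene, at 136 and 126 (1.08), and TUB3, the minor α-tubulin gene, at 137 and 98.3 (1.40). Their median was 1.08 as deposited and 0.924 after division, so its side of 1 depended on the scaling.

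The CCT chaperonin folds tubulin and actin downstream of prefoldin. Its 7 measured subunits, grouped after the values were seen, all had higher values in mtr3-1, as had 96 of all 133 genes. Their ratios ran from 1.12 (CCT2) to 1.42 (CCT7), with a median of 1.24. None reached 1.5-fold, beside 18% of all genes higher as deposited. After division they lay around the median gene, from 0.962 to 1.21. CCT3, for example, stood at 263 units in mtr3-1 and 189.6 in mtr4-1. ACT1, the actin gene and a client of both, was at 1443 and 1554 units, a ratio of 0.928.

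**Figure D4:**
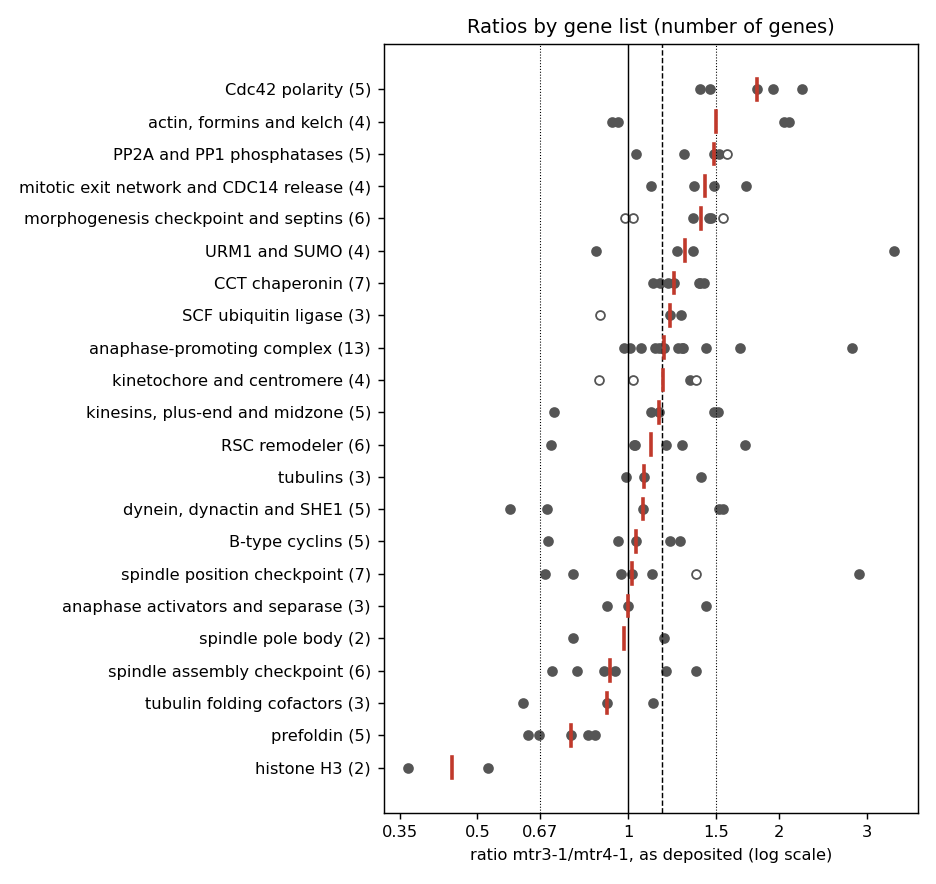
Ratio of mtr3-1 to mtr4-1 as deposited (horizontal axis, log scale) for the measured genes of 22 lists, with 1 point per gene, open where the identity is uncertain, and a bar at each list's median. The solid line marks 1, the dashed line the median of 1.17 and the dotted lines 1.5-fold either way. Histone H3 (median 0.445) and prefoldin (0.768) lie lowest and Cdc42 polarity (1.81) highest.

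All 13 listed subunits of the anaphase-promoting complex, the ubiquitin ligase that triggers chromosome separation, were measured. CDC23, described above, stood alone at 2.80. The next was SWM1, a small subunit of the complex, at 61.7 units in mtr3-1 and 36.9 in mtr4-1, for a ratio of 1.67 (1.43 after division). The other 11 were inside the limits, from 0.982 for APC2, part of the catalytic core, to 1.43 for CDC27, a relative of CDC23 in the arm of the complex. Of the 13, 2 were thus at least 1.5-fold higher as deposited, beside 18% of all genes, and 1 after division, beside 9.02%. CDC16, another arm subunit, was the median gene of the whole table at 27.2 and 23.4 units. Without CDC23 the subunits had a median of 1.17, close to that of all genes.

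The regulators of the complex were inside the limits, as were 101 of all 133 genes as deposited and 105 after division. CDC20, its mitotic activator, was at 11.9 units in mtr3-1 and 13.1 in mtr4-1 (0.909), and CDH1, its activator in late mitosis and G1, at 24.3 and 17.03 (1.43). ESP1, the separase that cleaves cohesin, was level at 9.985 and 10.001 units. Among the B-type cyclins, which drive mitosis and S phase with Cdc28, 5 were measured. CLB1 was the lowest at 12.5 and 18.0 units, a ratio of 0.693 (0.594 after division), and CLB3 the highest at 1.27. CLB2, the closest relative of CLB1, was at 11.7 and 12.2 units, so the 2 genes were near level in mtr3-1 and apart in mtr4-1.

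The spindle assembly checkpoint, which holds anaphase until kinetochores attach, had a median of 0.920 over 6 genes. None was past 1.5-fold as deposited, beside 18% higher and 6.02% lower over all genes. BUB3 was the lowest at 31.2 units in mtr3-1 and 44.4 in mtr4-1 (0.704). It alone passed after division (0.603), when 12% of all genes were lower. MAD3, which works in the same inhibitory complex as Bub3, was the highest at 16.5 and 12.1 units (1.36). Members of this pathway thus lay on both sides of equality. BUB1, a kinase that anchors the checkpoint at kinetochores, had low values of 3.51 and 4.45 units.

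In the spindle position checkpoint, which delays mitotic exit while the spindle is misplaced, the 7 measured genes spread from 0.681 to 2.89. BFA1, which with BUB2 keeps the GTPase Tem1 inactive, was at 13.5 units in mtr3-1 and 19.8 in mtr4-1 (0.681), whereas BUB2 was at 27.7 and 24.9 (1.11). These partners therefore differed in direction as deposited, though after division both were below 1, at 0.584 and 0.956. SPC72, which anchors astral microtubules at the spindle pole, was at 7.54 and 9.69 units (0.778, or 0.667 after division, just past the limit), and KIN4, the kinase that guards Bfa1, was level at 22.4 and 22.0. DMA1 was the exception at the top. Without it, the list had a median of 0.993 and no gene past 1.5-fold as deposited, beside 18% higher and 6.02% lower over all genes. After division 2 of these 6 were lower, beside 12%.

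The mitotic exit network, which releases the phosphatase Cdc14, had 4 of 12 listed genes with values. All 4 were higher in mtr3-1 as deposited, as were 96 of all 133 genes. MOB1, the activating partner of the kinase Dbf2, was at 54.6 units in mtr3-1 and 31.8 in mtr4-1 (1.72, or 1.47 after division). NET1, which holds Cdc14 in the nucleolus, was at 40.1 and 26.9 units (1.49), and CDC15, a kinase of the network, at 1.36. CDC14 was at 1.11, or 0.954 after division, below the median gene. Of the 4, only MOB1 was past the limit, beside 18% of all genes, and none was after division, beside 9.02%. Kinetochore genes had a median of 1.18. None was past 1.5-fold, beside 18% higher and 6.02% lower over all genes, but 3 of the 4 measured have uncertain identities. The certain one, BIR1 of the chromosomal passenger complex, was at 9.68 and 7.29 units (1.33).

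Dynein and dynactin genes, whose products pull the spindle into the bud neck, split in both directions. ARP1, at 1.55, and DYN1, which encodes the motor chain of dynein, at 15.8 units in mtr3-1 and 10.4 in mtr4-1 (1.52), were higher. JNM1, a dynactin subunit, was at 16.04 and 23.3 units (0.690), and SHE1 was lower, at 0.581. LDB18, another dynactin component, lay between them at 1.07. Subunits of a single complex thus spanned 0.690 to 1.55, the latter for ARP1, on chromosome 8. After division DYN1 and ARP1 were inside the limits, at 1.30 and 1.33, while JNM1 at 0.591 was past them. Without ARP1 the list's median was 0.880 (0.755 after division), beside 1.07 with it.

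Motor and midzone genes had a median of 1.15, close to that of all genes. ASE1, which bundles midzone microtubules, was at 15.2 units in mtr3-1 and 10.03 in mtr4-1 (1.51), and BIK1, a plus-end protein, at 37.1 and 24.97 (1.49). CIK1, the partner of the kinesin Kar3, was on the other side at 10.1 and 14.1 units (0.712). After division ASE1 was inside the limits, at 1.30, and CIK1 was past them, at 0.610. The kinesin KIP3 (1.15) and the plus-end protein BIM1 (1.11) were near the median gene.

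The Cdc42 polarity list, with values for 5 of 12 listed genes, had the highest median of the lists, 1.81 (1.55 after division). Of the 5, 3 were at least 1.5-fold higher on either scale, beside 18% of all genes as deposited and 9.02% after division. GIC2, an effector of Cdc42, was at 83.8 units in mtr3-1 and 37.7 in mtr4-1, for a ratio of 2.22. CLA4, a kinase activated by Cdc42, was at 36.6 and 20.2 units (1.81), and GIC1, on chromosome 8, was at 1.95. CDC42 itself, at 308 and 212 units (1.45), and its exchange factor CDC24, at 21.6 and 15.5 (1.39), were higher but inside the limits. All 5 also had ratios above the median gene. Without GIC1 the median was 1.63, or 1.40 after division.

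BNI1, a formin that assembles actin cables under Cdc42, was at 17.4 units in mtr3-1 and 8.31 in mtr4-1, for a ratio of 2.09 (1.79 after division). MYO2, the myosin that carries cargo along these cables, was at 37.6 and 34.7 units (1.08). The actin, formin and kelch list had 2 of 4 genes at least 1.5-fold higher on either scale, beside 18% and 9.02% of all genes. Its median as deposited was 1.501, which was 0.957 without KEL1. KEL1 and KEL2, related kelch proteins, differed: KEL1 was 2.04 and KEL2, on chromosome 7, 0.957 on low values of 6.43 and 6.72 units. GIC1, on chromosome 8, and GIC2, on chromosome 4, were both high, at 1.95 and 2.22. DMA1, on chromosome 8, was at 2.89 and its relative DMA2, of uncertain identity, at 1.37. The part of the chromosome in these pairs was not tested.

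The morphogenesis checkpoint restrains mitosis when budding is disturbed. None of its 3 measured genes of certain identity passed 1.5-fold, beside 18% higher and 6.02% lower over all genes. HSL1, a kinase that brings about destruction of Swe1, was at 45.0 and 33.4 units (1.35), its partner HSL7 at 46.1 and 31.5 (1.46) and MIH1, the phosphatase that opposes Swe1, at 13.9 and 9.58 (1.45). The other 3 measured genes of this list, GIN4, KCC4 and BNI5, have uncertain identities. Of these GIN4 was past the limit at 1.55 (1.32 after division), and KCC4 (1.02) and BNI5 (0.984) were inside. For the phosphatase PP2A, the regulatory subunits RTS1 (56.4 and 37.2 units, ratio 1.52) and CDC55 (59.7 and 40.3, 1.48) were above the catalytic subunits PPH22 (1.30) and PPH21 (1.04). After division RTS1 was inside the limits, at 1.30. The catalytic pair share 18.9% of the 36-base windows of PPH21, too low a share if the cycles include the barcode, so their split is uncertain.

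Of the chromatin remodeler RSC, 6 subunits were measured, and they spread from 0.703 to 1.71. RSC6 was at 82.2 units in mtr3-1 and 48.1 in mtr4-1 (1.71), and STH1, the ATPase, at 22.1 and 17.2 (1.28). SFH1, a core subunit, was at 15.7 and 22.4 (0.703). After division RSC6 was inside the limits, at 1.47, and SFH1 was past them, at 0.602. RSC3, RSC4 and RSC9 lay between 1.03 and 1.19.

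Of the spindle pole body list, only SPC72 and SFI1, a centrin-binding protein of the half-bridge, at 14.5 and 12.3 units (1.18), had values.

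In the Urm1 pathway the enzyme and its substrate differed. UBA4, on chromosome 8, had the highest ratio of the table. In contrast URM1, the modifier that Uba4 activates, was at 129 units in mtr3-1 and 149 in mtr4-1, for a ratio of 0.864. The SUMO pathway genes UBC9, the conjugating enzyme, and ULP1, a protease, were at 1.25 and 1.35. For the SCF ubiquitin ligase, the scaffold CDC53 was at 38.7 and 31.9 units (1.21) and the F-box protein CDC4 at 36.8 and 28.9 (1.27). SKP1 has an uncertain identity.

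Of the 133 genes, 106 belong to a list and 27 to none. Those 27 had a median of 1.17, with 7 higher and 2 lower as deposited and 18 inside the limits, beside 18% higher and 6.02% lower over all genes. After division 4 were higher and 2 lower, beside 9.02% and 12%. The 7 include YDR118W-A and YER133W-A, both of uncertain identity. YER133W-A carries the same values as GLC7, so that measurement stands as 2 of the 24 higher genes. Beside the genes already named, CDC7, a kinase that fires replication origins, was higher at 20.5 and 12.4 units (1.65, or 1.42 after division). CMD1, calmodulin, was at 343 and 257 units (1.33), RPN4, a transcription factor of proteasome genes, at 40.1 and 39.6 (1.01), and AMN1, which dampens mitotic exit, at 118 and 126 (0.935).

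Among the authors' GO terms, the term for tubulin assembly chaperones, which holds the prefoldin genes and RBL2, had all 6 genes below 1 and a median of 0.716. The term for cell budding had 4 of 8 genes at least 1.5-fold higher as deposited, UBA4, TGL4, CHS1 and an entry listed as GLC7 of uncertain identity, beside 18% of all genes. After division it had 3, beside 9.02%. The largest term, the transition from G2 to mitosis, had 2 of 25 genes higher and 1 lower as deposited, beside 18% and 6.02% of all genes. After division 0 were higher and 3 lower, beside 9.02% and 12%. Its median was 1.19, or 1.02 after division. Terms share genes, since 38 of the 133 sit in more than 1.

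Across the 121 genes of certain identity, the ratio was correlated with coding length with a Spearman's rho of 0.28, as a description of 2 libraries in which all genes share the same depth. Among the shortest genes, from 300 to 1107 bases, 6 of 32 were at least 1.5-fold lower as deposited. That compares with 1 in the other 89 and 6.02% of all genes. The 6 were HHT1, HHT2, GIM4, YKE2, RBL2 and SHE1. After division 8 of the 32 were lower, beside 12% of all genes. The successive groups of longer genes then had 3 of 29, 4 of 30 and 0 of 30, so the contrast was weaker. The 5 prefoldin genes and both H3 genes are among these 32, and without them rho was 0.16 over 114 genes. The part of gene length in the prefoldin and histone values was not tested. With the mean value of a gene, rho was 0.09 over the 121 genes and 0.24 without the 7 prefoldin and H3 genes.

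Genes that lie close together did not always have like ratios. Among 10 pairs of certain genes within 5 kb in the listed positions, the larger ratio was 1.02 to 2.08 times the smaller, with a median of 1.22. Pairs of genes that lie apart were not measured this way, so whether neighbours are more alike than other genes was not tested. Listed positions can span more than the gene, so distances are approximate. MAD3, with 1548 coding bases, is listed at 408 to 413 kb. No pair is on chromosome 8, where UBA4 (3.40, 333 to 334 kb) and DMA1 (2.89, 340 to 341 kb) lie just beyond the limit. TGL4, at 2.66, is the neighbour of TVP38, a membrane protein of the Golgi, at 1.28 (chromosome 11, 604 to 608 kb). CCT3 and MAD3 on chromosome 10 were nearly equal, at 1.39 and 1.36.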

How the data were processed

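Sequencing of poly(A)-selected RNA gave 1 library per strain, run for 36 cycles with a barcode of 3 bases per the labels' protocols. Bowtie and the build sacCer2 are named in the submitters' processing notes. The deposited signal is a normalized value per gene and library, per the file headers, and the sources used here do not say how the authors counted or normalized reads. The values are not counts, so depth and counting error are unknown.

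From 190 entries in 16 term tables, 175 had values. These named 133 ORFs with 130 distinct sets of values, and no ORF had conflicting values. Names, chromosomes and coding lengths came from RefSeq R64 by ORF identifier, which held 130 of the 133. Printed positions are the authors'. Identity was called uncertain for 12 ORFs with no R64 entry, a listed position more than 1 kb away from the gene, or values shared with another ORF: YDR118W-A, YFR036W-A, YER133W-A, GLC7, GIN4, KCC4, BNI5, SKP1, CEP3, CBF2, CTF13 and DMA2. The listed chromosome number was not part of that rule.

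Ratios, counts and medians were computed in Python 3.11.15 with pandas 2.3.3, after the counting was tested on simulated data. No gene with values was left out. The members, 22 gene lists and the naming rule (the 12 highest and 12 lowest ratios and list members) were chosen with earlier results of these data known. Of the lists, the one on exosome and TRAMP genes had no measured member. The CCT list and the grouping by chromosome were added later. The alternatives were division by the median, other folds, a filter on low values, an offset, certain genes and all entries.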

Additional observations from a re-analysis of the deposited data

How the results depend on the processing

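With the ratio divided by its median, the genes at least 1.5-fold higher in mtr3-1 numbered 12 instead of 24 and those lower 16 instead of 8. At 2-fold they numbered 10 and 1, and at the authors' limits for increased and decreased, applied to the ratio, 72 and 18. Leaving out the lowest 25% of genes by mean value gave 18 and 5, and an offset of 1 unit gave 21 and 6. Genes of certain identity gave 20 and 7, and every entry of every term gave 33 and 9. Without chromosome 8, a choice made after seeing the data, they were 18 and 8, and the median of the actin, formin and kelch list turned from 1.501 to 0.957. The median ratio was between 1.15 and 1.19 with the low values, the uncertain genes or chromosome 8 left out, with the offset and over all entries. With the offset, the 24 genes with the highest or lowest ratios each moved by less than 1.5-fold. For all but YFR036W-A this could not come out otherwise, since their values were 5.08 units or more. No paired analysis was possible because each mutant had 1 library. With unknown depth, no limit can be set on the error of low values such as those of BUB1 or YFR036W-A.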
